A study of Mus musculus with 6 samples.

Results

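The genes examined here are the nuclear-encoded subunits of the mitochondrial respiratory chain and ATP synthase in naive CD8 T cells. They were chosen by symbol (Nduf followed by a, b, c, s or v and a digit, Sdha to Sdhd, Uqcr, Cox4 to Cox8, and Atp5). The rule found 78 of the 11162 genes listed, with 38 in complex I, 4 in complex II, 8 in complex III, 11 in complex IV and 17 in complex V. All 78 had a mean RPKM (reads per kilobase of gene, scaled to library size) of at least 1 over the 6 libraries and were tested, together with 9351 genes in all.

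The cells came from the spleens of mice with the transgene Nur77-GFP (Tg(Nr4a1-EGFP)GY139Gsat), in which green fluorescent protein reports on the Nr4a1 locus, an early target of T-cell receptor signalling. The genotype label gives this transgene for both groups, and the sort markers also name OT-I, a T-cell receptor specific for a peptide of ovalbumin. Cells were sorted as CD8+, CD44lo, CD62Lhi and Qa2hi, the surface profile of mature naive cells. The brightness of the reporter then set apart GFP-hi cells (3 libraries) from GFP-lo cells (3 libraries). The comparison asks how the transcripts of naive cells with a bright reporter differ from those of cells with a dim one. Age, the number of mice and whether animals were pooled are not given in the sources used here, so the p-values measure the spread between these libraries, which may be technical.

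Oxidative phosphorylation passes electrons from NADH and succinate through complexes I to IV to oxygen, and the proton gradient built on the way drives ATP synthase, also called complex V. Most subunits are encoded in the nucleus and imported, while a small set is encoded in mitochondrial DNA. Resting naive T cells draw most of their ATP from this pathway, and activated cells enlarge their mitochondria while also turning to glycolysis. Transcripts encoded in mitochondrial DNA were not analysed here.

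The read depth recovered from the RPKM values was 26170000 to 35940000 reads per library. Genes of the T cell, such as Cd3e at 192 to 209 RPKM and Cd8a at 90.9 to 107 RPKM, were high in all libraries. Among markers of other cells, Ms4a1 and Cd22 of B cells, Itgam of myeloid cells and Hba-a1 of red cells were at most 0.597, 0.394, 0.431 and 1.94 RPKM. Cd79b of B cells was at 10.6 to 14.1 RPKM, with all GFP-hi above all GFP-lo libraries (log2 fold change 0.26, limma adjusted p = 0.075), and Cst3 of myeloid cells at 18.4 to 24.5 RPKM. The reporter transcript did not separate the populations, with a log2 fold change of 0.15 for GFP (limma, adjusted p = 0.42) and 0.02 for Nr4a1 (adjusted p = 0.98), so neither transcript checks the sort labels.

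Transcripts of the respiratory subunits were slightly more abundant in GFP-hi than in GFP-lo cells across all 5 complexes. Of 78 members, 75 had a positive log2 fold change on the log2(RPKM + 1) scale, as did 55.5% of all genes tested, and with trimmed mean of M values scaling 74 had one, since Ndufs5 was then at -0.002. The median was 0.17 for the members and 0.02 for all genes tested. Individual differences were small, from -0.03 to 0.40. In bulk RNA, more transcript per cell and more cells of a kind that express it cannot be told apart, and RPKM does not show a change in total RNA per cell.

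Few of these differences passed the test on their own. Atp5g3 of complex V and Ndufc2 of complex I were higher at an adjusted p under 0.05, and none was lower. That is 2 of 78 members, or 2.56%, beside 2.46% of all genes called higher, 1.49% called lower and 3.95% called in either direction, so the share of called members lay at the background. With array quality weights, which give noisier libraries less influence, 20 members were higher, beside 8.37% of all genes, and 0 were lower, beside 5.34%. Both calls were lost when any 1 of the 6 libraries was left out (adjusted p of 0.073 to 0.091 for Atp5g3 and 0.067 to 0.12 for Ndufc2).

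The levels themselves separated the groups more often than they passed the threshold. In 50 members every GFP-hi library lay above every GFP-lo library, beside 17.1% of all genes tested, and in 0 members the order was the opposite, beside 9.84%. An unadjusted limma p under 0.05 with higher GFP-hi levels was reached by 46 members, beside 12.9% of all genes tested, and with lower levels by 0 members, beside 7.3%. The members moved together from library to library, so these counts do not add up independent observations. The summed RPKM of the 78 genes was 2974, 3334 and 3080 in GFP-hi and 2737, 2877 and 2803 in GFP-lo libraries, which did not overlap.

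**Figure D1:**
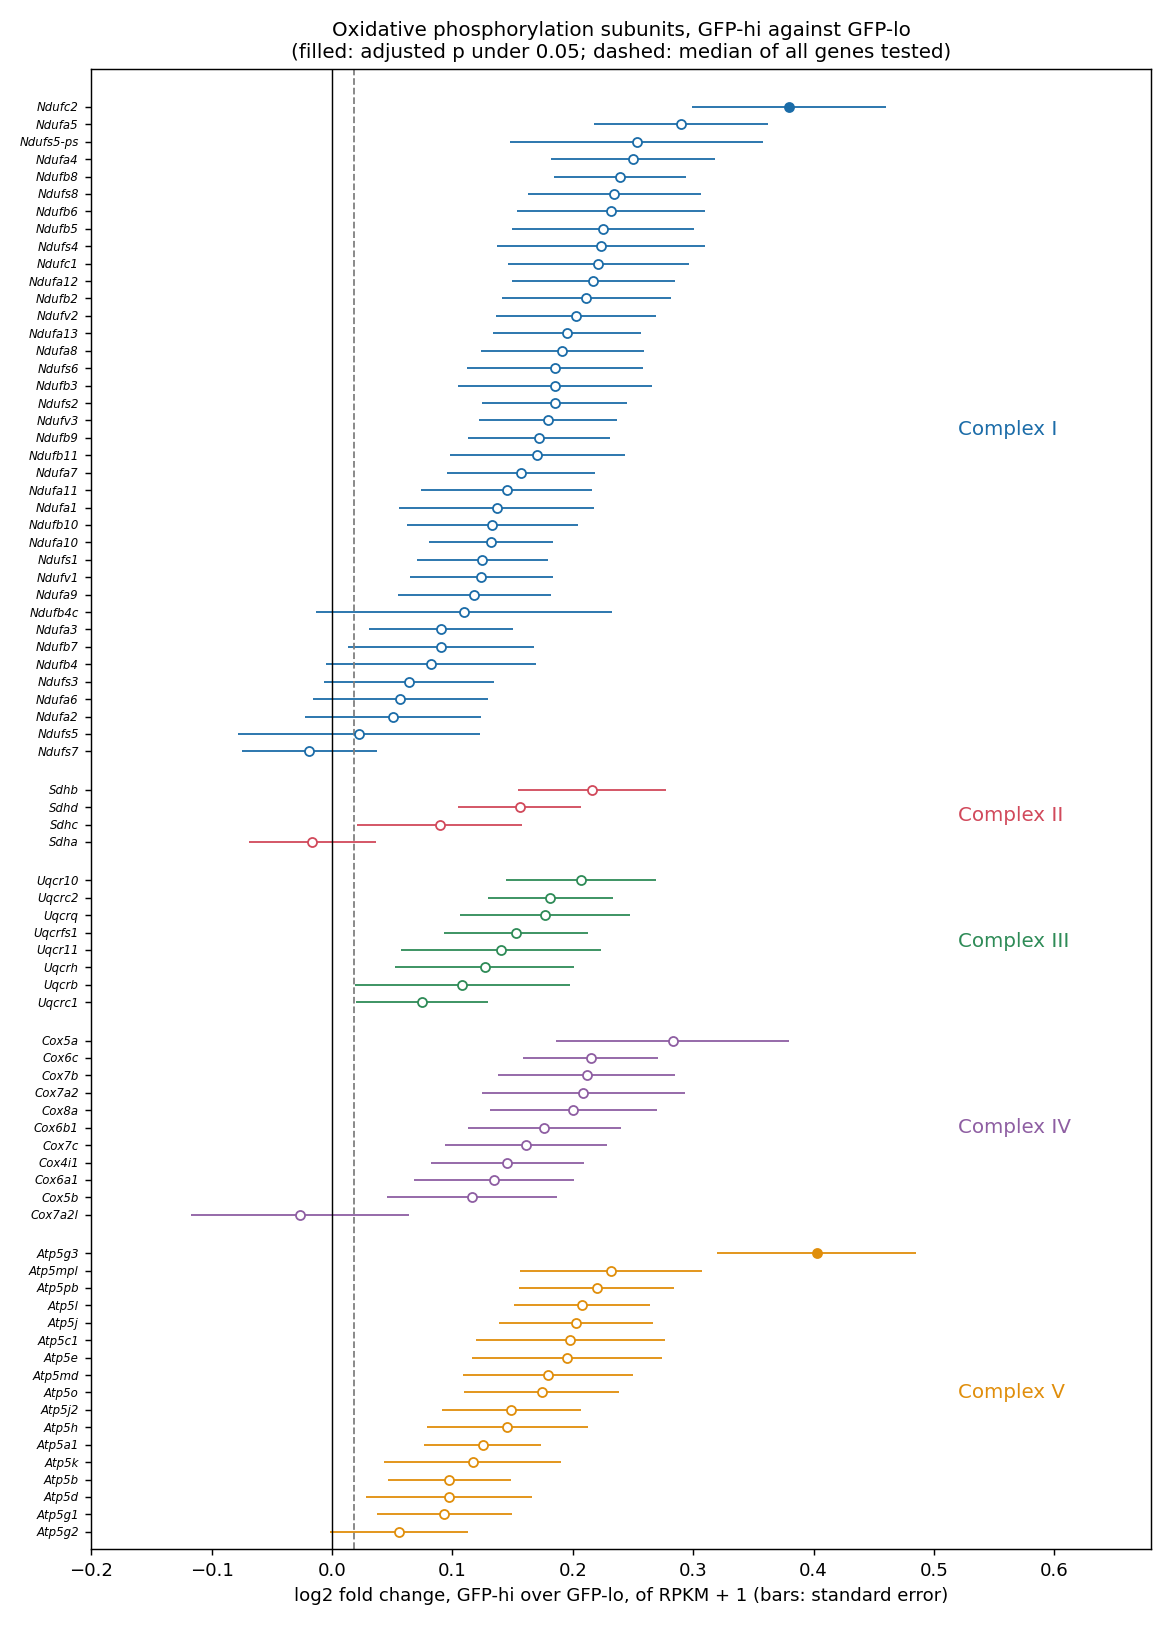
Log2 fold change of RPKM + 1, GFP-hi over GFP-lo, for each of the 78 subunit genes by complex, with bars for the standard error (3 libraries per group). Points lie right of 0 for 75 genes, the filled points are Ndufc2 and Atp5g3, and the dashed line is the median of all genes tested, 0.02.

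Complex I takes electrons from NADH and passes them to coenzyme Q while pumping protons. Of its 38 genes 37 had a positive log2 fold change, with a median of 0.18, and in 22 all GFP-hi libraries lay above all GFP-lo libraries, as in 17.1% of all genes tested. Ndufc2 (Entrez 68197, chromosome 7, 97400003 to 97407800 in GRCm38), an accessory subunit of the membrane arm, had 26.4, 30.5 and 28.5 RPKM in GFP-hi and 19.45, 22.6 and 22.9 RPKM in GFP-lo libraries. All GFP-hi libraries lay above all GFP-lo libraries. Mean levels of 28.4 ± 2.05 and 21.7 ± 1.92 RPKM (SD, n = 3 each) give a ratio of 1.31, and the fitted log2 fold change was 0.38 ± 0.080 (SE; adjusted p = 0.041 by limma).

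The 250 bases before the RefSeq start of Ndufc2 (chr7:97399753-97400002, plus strand, GRCm38.p6) are shown because it is the called member of this complex. No match to the 4 motifs searched below lies in them, so no letters are in capitals.
Ndufc2: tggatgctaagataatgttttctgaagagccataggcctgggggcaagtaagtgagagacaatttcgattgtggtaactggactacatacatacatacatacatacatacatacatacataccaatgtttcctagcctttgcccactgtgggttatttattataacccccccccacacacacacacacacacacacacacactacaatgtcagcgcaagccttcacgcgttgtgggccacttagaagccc

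The core subunits of complex I, which carry the flavin and the iron-sulphur clusters or shape the quinone site, were described apart from the accessory ones. The 7 nuclear core genes had a median log2 fold change of 0.12, with 6 positive, and the 29 accessory genes a median of 0.18, with 29 positive (Ndufa4 is counted here, and 2 gene copies are left out, all described below). Ndufs8, an iron-sulphur core subunit, had 27.9, 33.4 and 29.6 RPKM in GFP-hi and 25.5, 26.4 and 24.8 RPKM in GFP-lo libraries (log2 fold change 0.23, limma adjusted p = 0.12). Ndufv1, which binds the flavin that receives electrons from NADH, had 17.4, 19.2 and 18.9 against 17.7, 16.5 and 16.6 RPKM, and the groups overlapped (0.12, adjusted p = 0.30).

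Ndufs7, the core subunit that holds the last iron-sulphur cluster before coenzyme Q, was the only gene of complex I with a negative value. It had 30.4, 33.2 and 30.8 RPKM in GFP-hi and 33.1, 31.0 and 31.5 RPKM in GFP-lo libraries (log2 fold change -0.02, 95% interval -0.15 to 0.11, limma adjusted p = 0.89). The libraries of both groups were interleaved, and its sign turned positive when replicate 1 of either group was left out (0.0044 for GFP-hi, 0.0073 for GFP-lo).

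Among accessory subunits, Ndufa5, which sits near the quinone-binding part, had 18.4, 20.8 and 20.6 RPKM in GFP-hi and 14.9, 16.4 and 17.1 RPKM in GFP-lo libraries (log2 fold change 0.29, limma adjusted p = 0.071). Ndufb8, a membrane-arm subunit often used to follow assembled complex I, had 14.9, 16.2 and 15.3 against 12.7, 13.2 and 12.97 RPKM (0.24, adjusted p = 0.055). In both genes the groups did not overlap, and neither passed the threshold. The most abundant transcript of the complex, that of the small X-linked subunit gene Ndufa1, had 102, 118 and 103 against 89.4, 105 and 98.1 RPKM, with overlapping groups (0.14, adjusted p = 0.40).

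Ndufa4 is named for complex I, but its protein is a subunit of complex IV. It had 33.8, 38.6 and 33.2 RPKM in GFP-hi and 28.4, 30.3 and 29.4 RPKM in GFP-lo libraries, without overlap (log2 fold change 0.25, limma adjusted p = 0.090). Some members are near-identical copies between which reads can be split. The pseudogene Ndufs5-ps had a log2 fold change of 0.25 (adjusted p = 0.23) and its parent gene Ndufs5 one of 0.02 (adjusted p = 0.93), while Ndufb4c had 0.11 and Ndufb4 0.08, and the levels of these 4 genes are uncertain.

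Complex II, succinate dehydrogenase, belongs to both the citric acid cycle and the respiratory chain and is encoded wholly in the nucleus. Of its 4 genes 3 had a positive log2 fold change, with a median of 0.12. In 2 the groups did not overlap, with GFP-hi above as in 17.1% of all genes tested. Sdhb, the iron-sulphur subunit, had 48.6, 54.0 and 50.8 RPKM in GFP-hi and 41.5, 45.4 and 44.7 RPKM in GFP-lo libraries (log2 fold change 0.22, standard error 0.061, limma adjusted p = 0.10). The groups of Sdhb did not overlap.

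Sdha, the flavin-binding subunit that oxidises succinate, had 78.8, 80.9 and 76.2 RPKM in GFP-hi and 82.2, 79.7 and 76.7 RPKM in GFP-lo libraries. Its groups overlapped, at a log2 fold change of -0.02 (95% interval -0.14 to 0.11, adjusted p = 0.90 by limma). Leaving out GFP-hi replicate 3 (0.0058) or GFP-lo replicate 1 (0.0073) turned its sign. The ratio of Sdhb to Sdha was 0.617, 0.667 and 0.667 in GFP-hi and 0.506, 0.569 and 0.584 in GFP-lo libraries. Those ratios did not overlap (exact permutation test, two-sided, p = 0.1, the smallest that 3 against 3 allows, and 0.175 adjusted over the 7 ratios compared).

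The membrane anchors that pass electrons to coenzyme Q were Sdhd, with 91.7, 96.4 and 94.9 against 82.7, 87.4 and 83.6 RPKM (log2 fold change 0.16, limma adjusted p = 0.14), and Sdhc, with 16.0, 17.7 and 16.4 against 14.4, 16.0 and 16.5 RPKM (0.09, adjusted p = 0.53). Sdhd was the most abundant transcript of the complex, and its groups did not overlap, whereas those of Sdhc did.

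Complex III moves electrons from coenzyme Q to cytochrome c. All 8 of its genes had a positive log2 fold change, from 0.07 to 0.21, with a median of 0.15, and none passed the threshold. Uqcr10, a small accessory subunit, had 38.1, 43.5 and 41.5 RPKM in GFP-hi and 36.3, 34.4 and 35.4 RPKM in GFP-lo libraries (log2 fold change 0.21, limma adjusted p = 0.12). The structural core gene Uqcrc2 had 41.0, 43.0 and 40.5 against 35.4, 36.8 and 37.2 RPKM (0.18, adjusted p = 0.10), without overlap. Its partner in the core, Uqcrc1, had 49.9, 52.9 and 48.5 against 48.9, 46.2 and 48.4 RPKM (0.07, adjusted p = 0.51), with overlap. Uqcrfs1, the Rieske iron-sulphur protein and the most abundant transcript of the complex, had 71.5, 76.0 and 67.5 against 63.8, 66.5 and 62.7 RPKM, also without overlap (0.15, adjusted p = 0.21).

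Complex IV, cytochrome c oxidase, passes electrons to oxygen, and its nuclear subunits surround a catalytic core made in the mitochondrion. Of 11 genes, 10 had a positive log2 fold change, the median was 0.18, and in 8 the groups did not overlap, with GFP-hi above as in 17.1% of all genes tested. Cox6c had 17.1, 18.2 and 18.0 RPKM in GFP-hi and 14.4, 15.4 and 15.6 RPKM in GFP-lo libraries (log2 fold change 0.21, limma adjusted p = 0.079). Cox5a had the highest value of the complex, with 27.6, 33.3 and 29.6 against 21.6, 26.9 and 25.4 RPKM (0.28, adjusted p = 0.16). In both Cox6c and Cox5a all GFP-hi libraries lay above all GFP-lo libraries.

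The most abundant transcript of complex IV was that of Cox6a1, with 103, 120 and 114 RPKM in GFP-hi and 101, 104 and 101 RPKM in GFP-lo libraries, and its groups overlapped (log2 fold change 0.13, limma adjusted p = 0.31). Cox8a had 99.4, 115 and 103 against 93.8, 94.3 and 87.1 RPKM (0.20, adjusted p = 0.16). Cox4i1, a nuclear subunit through which ATP inhibits the enzyme, had 55.4, 63.1 and 57.7 against 50.8, 54.3 and 53.8 RPKM (0.15, adjusted p = 0.25). Neither Cox8a nor Cox4i1 overlapped between groups. The log2 fold change of Cox6b1 was 0.18 (adjusted p = 0.18). Alternative isoforms of these subunits known from heart, muscle, lung or testis were not analysed here.

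Cox7a2 and Cox7a2l are related genes with different roles, a subunit of the oxidase and a factor that joins complexes III and IV into supercomplexes. Cox7a2 had 37.2, 44.5 and 40.1 RPKM in GFP-hi and 31.7, 36.7 and 36.7 RPKM in GFP-lo libraries (log2 fold change 0.21, limma adjusted p = 0.22). Cox7a2l had 25.6, 31.6 and 26.1 against 26.0, 28.8 and 29.97 RPKM (-0.03, 95% interval -0.24 to 0.18, adjusted p = 0.90), and its sign turned when replicate 1 (0.03) or 3 (0.01) of GFP-hi or replicate 3 of GFP-lo (0.02) was left out. The ratio of Cox7a2 to Cox7a2l was 1.45, 1.41 and 1.53 in GFP-hi and 1.22, 1.28 and 1.22 in GFP-lo libraries, which did not overlap (exact permutation p = 0.1, adjusted 0.175). A lower p is not possible with 3 against 3 libraries, so the test decides nothing, and this ratio was chosen with its values known.

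Complex V makes ATP as protons turn its ring of c subunits. All 17 of its genes had a positive log2 fold change, with a median of 0.17, and in 14 the groups did not overlap, with GFP-hi above as in 17.1% of all genes tested. Atp5g3 (Entrez 228033, chromosome 2, 73908447 to 73912464 in GRCm38), which encodes the c subunit, had 51.1, 58.1 and 52.1 RPKM in GFP-hi and 36.0, 43.0 and 42.5 RPKM in GFP-lo libraries. Every GFP-hi library was above every GFP-lo library. Mean levels of 53.8 ± 3.76 and 40.5 ± 3.87 RPKM (SD, n = 3 each) give a ratio of 1.33. The fitted log2 fold change of 0.40 ± 0.083 (SE; adjusted p = 0.038 by limma) was the largest among the 78 members.

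The window before a RefSeq start of Atp5g3 (chr2:73911327-73911576, minus strand, GRCm38.p6), which lies inside the span of the gene, is shown as that of the other called member. It too holds none of the 4 motifs and is in lower case throughout.
Atp5g3: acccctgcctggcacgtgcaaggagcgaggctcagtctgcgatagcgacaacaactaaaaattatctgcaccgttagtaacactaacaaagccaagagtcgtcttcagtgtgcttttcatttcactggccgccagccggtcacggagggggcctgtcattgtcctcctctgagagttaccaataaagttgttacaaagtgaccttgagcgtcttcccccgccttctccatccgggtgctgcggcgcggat

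The c subunit is encoded by 3 genes whose mature proteins are the same. Atp5g2 had 17.6, 19.3 and 18.4 RPKM in GFP-hi and 18.1, 18.0 and 17.0 RPKM in GFP-lo libraries (log2 fold change 0.06, limma adjusted p = 0.65), with overlap. Atp5g1 had 7.38, 7.89 and 7.81 against 6.96, 7.35 and 7.14 RPKM (0.09, adjusted p = 0.41), without overlap. Atp5g3 made up 67.3% ± 0.806 of the summed RPKM of the 3 genes in GFP-hi and 61.9% ± 2.58 in GFP-lo libraries (SD, n = 3 each). The size of such shares depends on the length used for each gene in RPKM, which is not given in the sources used here. Median transcript lengths were 718 bases for Atp5g3, 683 for Atp5g2 and 2676 for Atp5g1. The ratio of Atp5g3 to Atp5g2 was 2.91, 3.01 and 2.83 in GFP-hi and 1.99, 2.39 and 2.51 in GFP-lo libraries. Those ratios did not overlap (exact permutation p = 0.1, adjusted 0.175). That p is the smallest that 3 against 3 libraries allow, so the test could not reach 0.05 and decides nothing. The ratio was chosen with its values known.

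**Figure D2:**
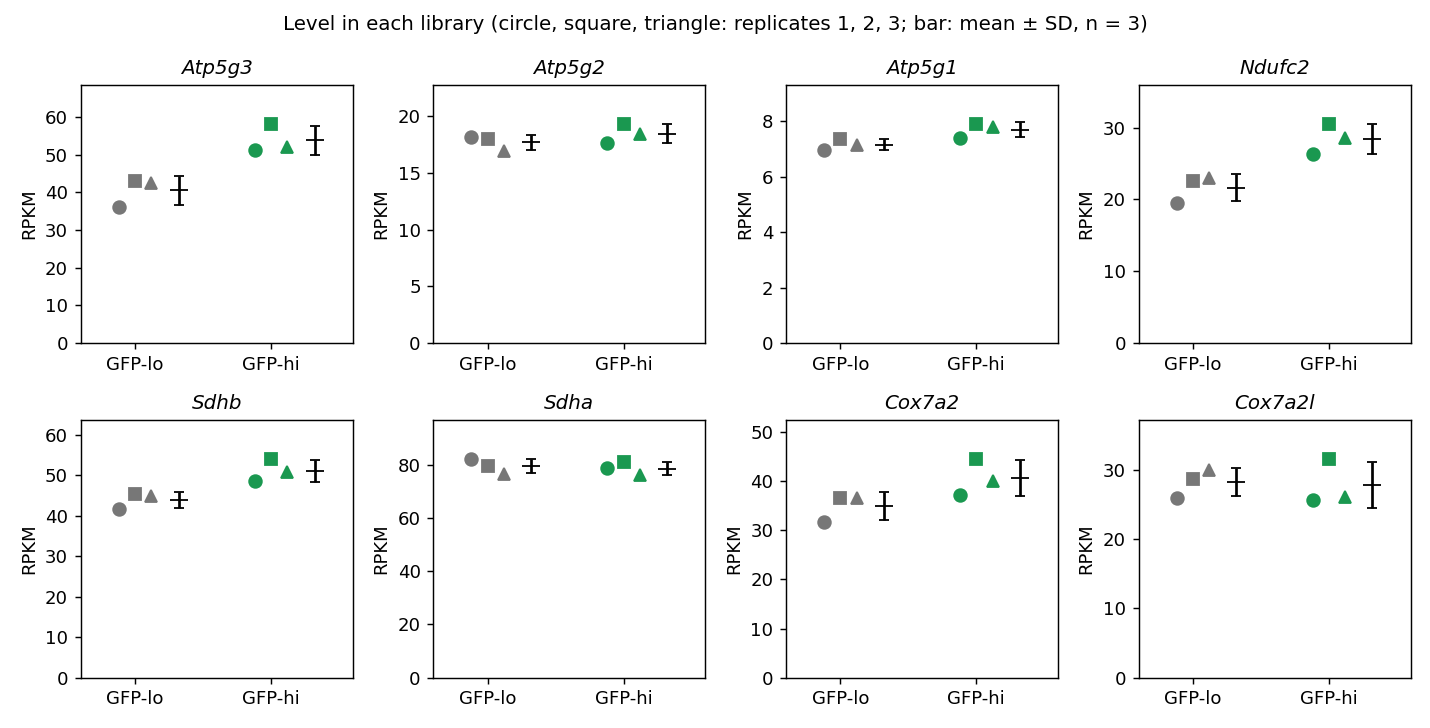
RPKM in each library of 8 subunit genes, with the replicates as symbols and the mean ± SD (n = 3) beside them, on axes that start at 0. Atp5g3, Ndufc2, Sdhb and Cox7a2 have separate groups, as does Atp5g1 by a small gap, while Atp5g2, Sdha and Cox7a2l overlap.

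The catalytic head and central stalk of ATP synthase (Atp5a1, Atp5b, Atp5c1, Atp5d and Atp5e) had a median log2 fold change of 0.125. Atp5b, the catalytic beta subunit and the most abundant of all 78 transcripts, had 139.6, 143 and 140.4 RPKM in GFP-hi and 127, 134 and 135 RPKM in GFP-lo libraries (0.10, limma adjusted p = 0.34). Its groups did not overlap, at a ratio of means of 1.07. The peripheral stalk that holds the head still (Atp5pb, Atp5h, Atp5j and Atp5o) had a median of 0.19. In all 4 genes the groups did not overlap, with GFP-hi above as in 17.1% of all genes tested. The small membrane subunits that shape ATP synthase dimers (Atp5j2, Atp5k, Atp5l, Atp5md and Atp5mpl) had a median of 0.18, led by Atp5mpl with 20.5, 23.8 and 21.3 against 17.4, 20 and 18.04 RPKM (0.23, adjusted p = 0.14).

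Libraries within a group differed in a way shared by most members. GFP-hi replicate 2 held the highest of the 6 values in 74 of 78 members, and GFP-lo replicate 1 the lowest in 47. The median over members of log2(RPKM + 1) minus each gene's mean was 0.0099, 0.17 and 0.06 in GFP-hi and -0.12, -0.04 and -0.08 in GFP-lo libraries. Without GFP-hi replicate 2 the median log2 fold change of the members was 0.12, with 73 of 78 positive, and without GFP-lo replicate 1 it was 0.15, with 76 positive. These were also the deepest libraries, at 33950000 and 35940000 reads, and the ones with the lowest sums of olfactory and vomeronasal receptor genes, at 9.62 and 9.20 RPKM against 27.3 to 41.5 RPKM in the others. Beyond a division given below that leaves out both of these libraries, the part of depth and of these reads in the result was not tested.

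**Figure D3:**
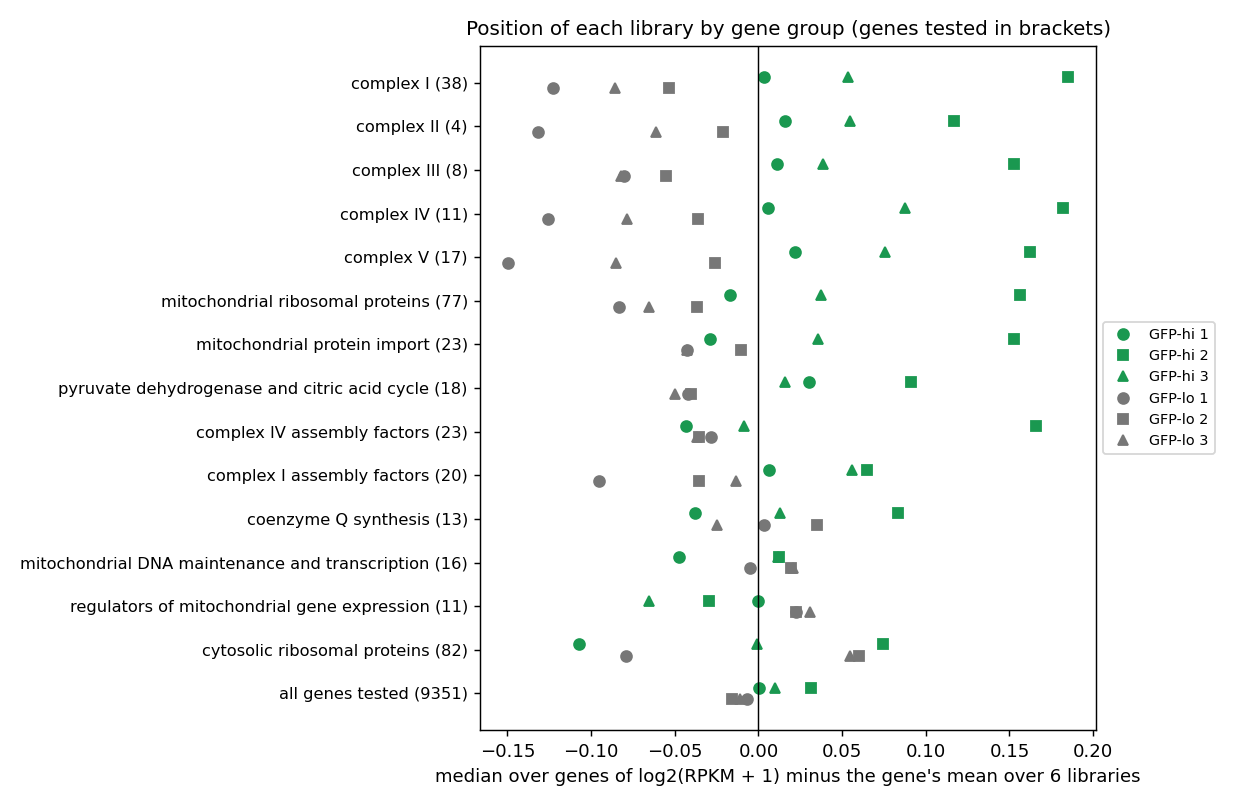
Median over the genes of each group of log2(RPKM + 1) minus the gene's mean over the 6 libraries, for each library (green GFP-hi, grey GFP-lo; circle, square and triangle for replicates 1, 2 and 3). In complexes I to V all GFP-hi libraries lie right of all GFP-lo libraries, with GFP-hi replicate 2 farthest right, whereas the cytosolic ribosomal proteins do not separate by group.

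The comparison was repeated within divisions of the libraries. The 4 libraries with more nasal receptor reads (2 per group) leave out both GFP-hi replicate 2 and GFP-lo replicate 1. Among them the median of the members was 0.11, with 69 of 78 positive, against 0.17 and 75 over all 6 libraries. Only Atp5g3 was called (0.27, limma adjusted p = 0.027), beside 2.82% of all genes called higher. The heat-shock and dissociation genes summed to 9001 RPKM in GFP-hi replicate 2 and 10030 RPKM in GFP-lo replicate 2, against 4615 to 5704 RPKM in the remaining 4. Within these 4 the median was 0.14, with 73 positive. Here 0 members were called, beside 52 genes called higher and 49 lower of all 9351. In these 4 the log2 fold change of Atp5g3 was 0.39 (limma adjusted p = 0.12) and that of Ndufc2 0.36. Over all 6 libraries they were 0.40 and 0.38. Between the groups the heat-shock and dissociation genes had a median log2 fold change of -0.23, with 6 of 26 positive. In GFP-hi cells 1 was called lower (Socs3, -0.93, limma adjusted p = 0.021), beside 1.49% of all genes tested. Their part in the values of the respiratory genes was not tested beyond this division.

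Most respiratory subunits have short transcripts, with a median length of 655 bases against 2085 bases over all genes tested. Over all genes, log2 fold changes were lower for longer transcripts (Spearman rho = -0.238, across 9107 genes, which share the 6 libraries and are not independent replicates), and among the 76 members with a length rho was -0.064. The 1721 other tested genes with transcripts under 1000 bases had a median log2 fold change of 0.05, with 1135 positive, below the 0.17 of the members. The 82 cytosolic ribosomal protein genes, also short, had a median of -0.02, with 28 positive. With the trend with length and GC content removed from each library, the median of the members was 0.11 against -0.005 over all genes. Then 71 of 76 were positive. Atp5g3 (0.34, limma adjusted p = 0.030) and Ndufc2 (0.32, adjusted p = 0.030) were called, beside 2.95% of all genes called higher.

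**Figure D4:**
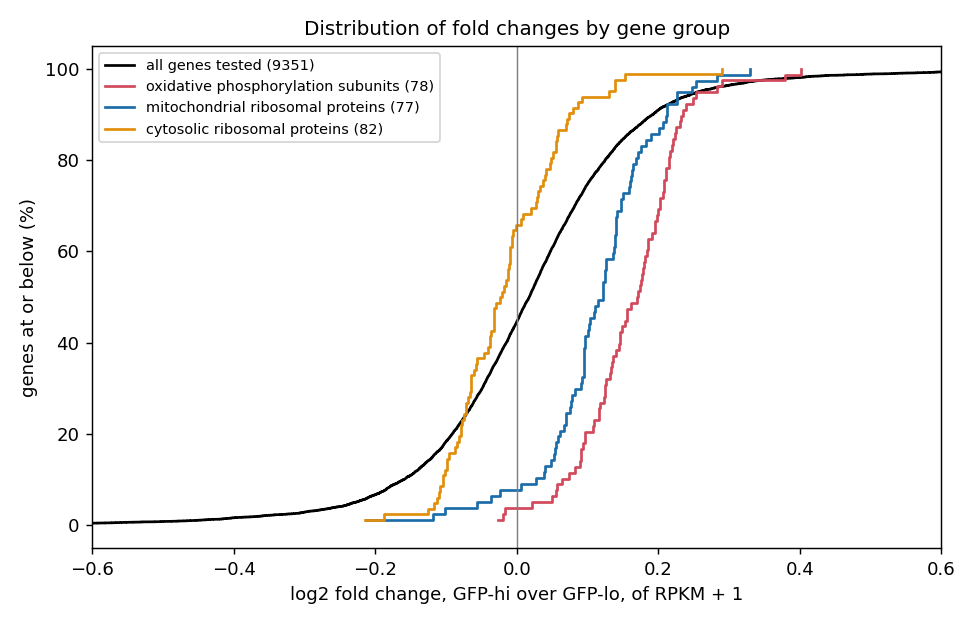
Share of genes at or below each log2 fold change (GFP-hi over GFP-lo, of RPKM + 1) for the 78 subunit genes, 77 mitochondrial ribosomal protein genes, 82 cytosolic ribosomal protein genes and all 9351 genes tested. The middle of the curve lies farther right for the subunits (median 0.17) than for all genes (0.02), and farther left for the cytosolic ribosomal proteins (-0.02).

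Genes that work beside the subunits were then counted from lists by function. Of the complex V assembly factors and regulators, 1 of 5 was called higher in GFP-hi, beside 2.46% of all genes tested. This was Atpif1, the only gene called among all these mitochondrial lists. It encodes the inhibitor that keeps ATP synthase from running backwards. Atpif1 had 17.6, 19.5 and 16.6 RPKM in GFP-hi and 13.3, 13.5 and 13.3 RPKM in GFP-lo libraries, with no overlap (log2 fold change 0.39 ± 0.066, SE; adjusted p = 0.019 by limma). Leaving out replicate 1 of GFP-hi or any replicate of GFP-lo ended this call (adjusted p of 0.061 to 0.079), as did keeping only the 4 libraries with lower heat-shock genes (0.076).

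The other assembly factors had medians of 0.11 (complex I, 20 genes), 0.16 (II, 4 genes), 0.03 (III, 6 genes) and 0.06 (IV, 23 genes). Of these, 0 genes were called in either direction, beside 3.95% of all genes tested. Among them, Coa6, a copper-delivery factor of complex IV, had 8.77, 10.99 and 8.86 against 7.55, 8.56 and 7.55 RPKM (0.24, limma adjusted p = 0.20). Subunits that the symbol rule misses had lower values than most members: Ndufab1, the acyl carrier protein of complex I, 0.15, and Cyc1, the cytochrome of complex III, 0.05 (adjusted p = 0.29 and 0.65).

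Other nuclear genes of the mitochondrion divided by function. Mitochondrial ribosomal protein genes had a median of 0.12, with 71 of 77 positive, and protein import genes of the Tomm and Timm families a median of 0.09, with 20 of 23 positive. Pyruvate dehydrogenase and citric acid cycle genes had a median of 0.10, with 15 of 18 positive, led by Fh1 (0.18) and Mdh2 (0.16, limma adjusted p = 0.15). No gene of these lists was called, nor of the lists in the next paragraph, beside 3.95% of all genes tested.

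Genes that maintain and transcribe mitochondrial DNA had a median of -0.01, with 7 of 16 positive. Polg, the polymerase that copies mitochondrial DNA, had 9.79, 9.10 and 9.71 RPKM in GFP-hi and 14.2, 11.35 and 12.2 RPKM in GFP-lo libraries, all lower in GFP-hi (log2 fold change -0.36, standard error 0.081, limma adjusted p = 0.053). Of 11 regulators of mitochondrial gene expression 2 were positive, with a median of -0.05. The coactivator genes Pprc1 (22.0, 17.7 and 20.3 against 26.6, 24.4 and 24.4 RPKM) and Ppargc1b (8.56, 7.24 and 8.83 against 11.1, 9.5 and 9.555 RPKM) were lower in all GFP-hi libraries without passing the threshold (-0.32 and -0.26, adjusted p = 0.077 and 0.15). Coenzyme Q synthesis genes had a median of -0.02, with 5 of 13 positive.

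Cell cycle genes differed between the populations as well. Of 30 listed genes 20 were tested. Of these, 14 were called higher, beside 2.46% of all genes tested, and 0 lower, beside 1.49%. The listed genes summed to 268 to 301 RPKM in GFP-hi and 197 to 212 RPKM in GFP-lo libraries. Their part in the values of the respiratory genes was not tested. Among markers of other cells, the sums in GFP-hi and GFP-lo libraries were 12.6 to 14.2 and 11.01 to 11.4 RPKM for B cell genes, of which 3 of 9 were analysed, mainly Cd79b. For myeloid genes, of which 2 of 10 were analysed, mainly Cst3, they were 18.8 to 24.65 and 18.8 to 21.0 RPKM. For NK cell genes, of which 2 of 6 were analysed, mainly Nkg7, which CD8 T cells also express, they were 306 to 321 and 282 to 290 RPKM. Of the CD4 T cell genes 2 of 5 were analysed, and they went opposite ways: Cd40lg was lower in GFP-hi cells (14.2 to 22.7 against 35.4 to 46.8 RPKM, log2 fold change -1.13, limma adjusted p = 0.011) and Izumo1r higher (2.999 to 3.715 against 0.822 to 1.12 RPKM, 1.17, adjusted p = 0.00087). Their part was not tested either.

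Promoter sequence was examined as a feature that the rule did not use. RefSeq promoters (GRCm38.p6) matched 64 of the 78 members. In the 250 bases before the start, on both strands, the core of the NRF1 site (GCATGCG), a factor known for respiratory genes, was found in 9 of 64 members (14.1%), against 7.14% of 7616 tested genes and 3.43% of all 27025 genes with a promoter. The ETS site of GABPA (CCGGAAG) was found in 18.8% of members and 18.4% of tested genes, and the YY1 site (AAGATGG) in 1.56% and 5.55%. The GC box of SP and KLF factors (GGGCGG) was found in 35.9% of members and 64.9% of tested genes. A match describes the letters only. The NRF1 match of Atp5j lies inside the span of that gene, in a window that annotated exons of Atp5j and Gabpa cover. The window before the other start of Atp5j held no NRF1 match. Annotated exons also cover part of the matched window of each other member, from 9 bases (Atp5l) to 186 bases (Ndufa8). Whether the matches of those members lie in an exon was not tested. The windows around the NRF1 matches are shown, with the matched letters of either strand in capitals.
Atp5g2, chr15:102671072-102671098, minus strand: gctccggccgCGCATGCGcagagcctt
Atp5j, chr16:84835107-84835133, minus strand: ggccagaataCGCATGCGtacagtgca
Atp5k, chr5:108434432-108434458, minus strand: ttcactgcggCGCATGCGcctttctgg
Atp5l, chr9:44920967-44920992, minus strand: aaccaataaCGCATGCGcatttcccc
Cox6a1, chr5:115349103-115349129, minus strand: aggaacggggCGCATGCGcgctctcgc
Ndufa11, chr17:56717693-56717719, plus strand: ctgcactgcgCGCATGCGcgcacgcct
Ndufa6, chr15:82354358-82354384, minus strand: ccgcggtagaGCATGCGcattgcagag
Ndufa8, chr2:36049339-36049357, minus strand: tcgctggagaCGCATGCGc
Sdhb, chr4:140961207-140961233, plus strand: agcccagtggGCATGCGccctacgggc

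The 9 members with this match had log2 fold changes from Atp5g2 and Ndufa6 (0.06 each) to Atp5l (0.21) and Sdhb (0.22). The members Atp5g3 and Ndufc2, with the highest log2 fold changes among the 78, had none in their windows.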

How the data were processed

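RNA of sorted cells was made into libraries with the SMART-seq v4 and Nextera XT kits, per the labels' protocols. These kits do not mark strand, so reads of overlapping genes on opposite strands cannot be told apart. The deposited values are RPKM made by the authors, per the file headers. STAR and mm10 are named in the submitters' processing notes, and the read counter and annotation are not given in the sources used here. All 6 columns of values were used, and samples were grouped by their reporter label. Where a symbol was a date (14 genes) or missing (1 gene) it was looked up in RefSeq (GRCm38.p6, the assembly of mm10) by Entrez ID.

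Depth was recovered from the step that 1 read makes in RPKM times length, over 546 genes with a single GENCODE transcript. From 93.2% to 95.1% of low values came out whole (tolerance 0.1 reads), where 20% would do so by chance. The 8 members with a single transcript rested on 950 to 4029 reads per library, a counting error of at most 3.2%. Reads include PCR copies, so this covers counting error only.

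Genes averaging 1 RPKM or more were tested with limma 3.58.1 (R 4.3.3) on log2(RPKM + 1), with a mean-variance trend and no covariate. Tests were two-sided, with Benjamini-Hochberg adjustment over 9351 genes and a threshold of 0.05. The fit was tested on simulated data. Fold changes on this scale understate the change of low genes. The alternatives were other pseudocounts, filters, scalings, variance models and sets of libraries.

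Genes named were called members, in each complex the 2 largest absolute fold changes and the most abundant gene, sets of related genes, and from other lists up to 6 called genes or else the 2 largest. Ndufs7, Sdha, Ndufs8, Ndufv1, Ndufb8, Sdhc, Uqcrc1, Ndufs5, Ndufb4 and their copies, the genes with a promoter match, the cytosolic ribosomal proteins and the ratios were chosen after values were seen. The members and lists were chosen with earlier results of these data known. Figures were drawn with matplotlib 3.10.9.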

Additional observations from a re-analysis of the deposited data

How the results depend on the processing

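Values are log2 fold changes, and the cause of a change was not tested unless given. For the genes called between GFP-hi and GFP-lo the count was 369, 230 higher and 139 lower. With a mean RPKM of at least 5 (fewer genes tested) 202 were called, and with array quality weights 1282. In the 4 libraries with lower heat-shock genes 101 were called, and in the 4 with more nasal receptor reads 422. Without 1 library the count was 133 (GFP-lo replicate 2) to 315 (GFP-hi replicate 2). Of all calls 62.3% were higher, against 52.1% with the length and GC trend removed (269 higher against 247), 52.5% after TMM (trimmed mean of M values) scaling and 51.5% in the 4 libraries with lower heat-shock genes.

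Of the members 2 were called. Quantile normalization left 1 called (beside 2.35% of all genes called higher), as did the 4 libraries richer in nasal receptor reads (Atp5g3, beside 2.82%). With array quality weights 20 were called (beside 8.37% of all genes called higher and 5.34% lower). In the 4 libraries with lower heat-shock genes 0 were called (beside 0.556% higher). Without 1 library 0 were called in each of the 6 fits (beside 0.759% to 2% higher). Of the other mitochondrial lists, of which the ribosomal list alone holds 77 genes, 1 gene was called, beside 3.95% of all genes. There were 2 with median centring, quantile normalization, TMM scaling, the trend removed, robust eBayes and more nasal receptor reads. In these fits 2.17% to 2.95% of all genes were called higher. With array quality weights 13 were called, 8 higher and 5 lower, beside 8.37% and 5.34% of all genes. With lower heat-shock genes 0 were called, beside 0.556% of all genes called higher. Without 1 library 0 to 1 were called, beside 0.759% to 2% of all genes called higher. Polg was called lower with, among others, the trend removed (-0.41, limma adjusted p = 0.026), and its adjusted p was 0.053 in the values as deposited.

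The median of complex II was 0.066 with the trend removed and 0.059 with more nasal receptor reads, where that of complex V was 0.099. Without 1 library the medians were 0.120 to 0.196 for all members, 0.120 to 0.214 for complex I, 0.087 to 0.147 for II, 0.107 to 0.180 for III, 0.127 to 0.230 for IV and 0.124 to 0.200 for V. The sign turned in 11 members. With more nasal receptor reads Ndufa2 was -0.031, Ndufa6 -0.041, Ndufb4 -0.0485, Ndufs3 -0.032, Sdhc -0.0059, Uqcrb -0.024 and the assembly factor Dmac1 -0.019. With lower heat-shock genes Ndufb4c was -0.040 and Ndufs5 -0.084. With array quality weights Ndufa2 was -0.011 and Ndufs5 -0.045, with the trend removed -0.011 and -0.035, and with TMM scaling Ndufs5 was -0.002. Without 1 library Cox7a2l was -0.119 to 0.026, Ndufa2 -0.023 to 0.095, Ndufb4 -0.0067 to 0.155, Ndufs5 -0.065 to 0.099, Ndufs7 -0.056 to 0.0073 and Sdha -0.042 to 0.0073.

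The remaining settings tried (pseudocounts of 0.1 and 0.5, no filter, eBayes without trend, Ndufa4 moved to complex IV) kept the direction of each member and the 2 calls. No paired analysis was run because the labels give no replicate number that the groups share, and the numbers used here follow sample order. Some genes did resemble each other between like-numbered libraries. Ccr7 had 429 and 516 RPKM in replicate 1 of GFP-hi and GFP-lo, against 232.5 to 264 RPKM in the others. The heat-shock and dissociation sums were highest in both replicates 2. The nasal receptor sums did not follow the numbers, being lowest in GFP-hi replicate 2 and GFP-lo replicate 1. Whether like-numbered libraries share an animal or a batch was not tested. Counting error was at most 3.2% for the members with a single transcript, and the reads behind the other members were not recovered.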
